A study of Mus musculus with 3 samples.

Results

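The cells described here were neutrophils of the mouse aorta that held few granule transcripts and almost none of 4 inflammatory transcripts. They numbered 124 of the 9750 cells kept, and of 17389 cell barcodes, in 3 single-cell RNA libraries: 13 in the library titled Sham, 14 in the library titled AAA_7 and 97 in the library titled AAA_14. Cells were kept with 200 or more genes detected and no more than 10% mitochondrial unique molecular identifiers (UMIs, the counted molecules). A gated neutrophil, as these cells are called from here on, also had at least 100 UMIs of S100a8 plus S100a9 per 10000, at least 1 UMI among Csf3r, Cxcr2 and Clec4d, and fewer than 10 UMIs per 10000 of the granule genes Camp, Ltf and Ngp together. It held at most 1 UMI of Tnf, Ccl3, Il1a and Acod1 together, and no UMI of Cd79a, Cd3e or C1qa, which mark B cells, T cells and macrophages. Tnf, Ccl3 and Il1a encode cytokines, and Acod1 encodes the enzyme that makes itaconate. The cells were thus chosen by their measured levels of these genes, which are given only as a description.

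The series profiled CD45+ leukocytes of infrarenal aortas from wild-type mice. Sham aortas had been treated with phosphate-buffered saline (PBS) and AAA_14 aortas with elastase, which damages the wall and gives an abdominal aortic aneurysm. The library titled AAA_7 is titled as an aneurysm library while its treatment label reads PBS, so it is called by its title. Its levels stand beside the others as a description of that library, and no ratio or count of genes was computed against it. For the unit of the numbers 7 and 14, and for strain, age and sex, the answer is not given in the sources used here. A pool of 50 aortas went into Sham and one of 20 into AAA_14, and the labels count none separately for AAA_7. Live CD45+ cells were selected with beads. Each group is therefore 1 library with no replicate, and no test of a condition was possible. A difference below is one between these libraries, and every interval is a 95% interval that covers counting error only.

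Neutrophils are made in bone marrow and shut down their granule genes in a fixed order. Primary granule genes such as Elane and Mpo go first, then the secondary granule genes Camp, Ltf and Ngp, and then late granule genes such as Mmp8, Mmp9 and Retnlg. Mature cells carry the granulocyte colony-stimulating factor receptor Csf3r and the chemokine receptor Cxcr2, live for a short time and contain little RNA. In inflamed tissue, receptors for microbes and cytokines switch on NF-kB, which drives transcription of Tnf, Il1b, Cxcl2 and its own inhibitors. Type I interferon works through another route, in which a complex of transcription factors binds an interferon-stimulated response element (ISRE) beside its target genes.

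The label was checked against neutrophil markers. Of 15 marker genes 5 were used by the rule, so their presence was fixed. The other 10 were all detected among the gated cells of Sham and of AAA_14, and in AAA_7 only the innate immune receptor Nlrp12 was at 0 UMIs. Slpi, a protease inhibitor of neutrophils outside the rule, had a UMI in 12 of 13, 10 of 14 and 94 of 97 gated cells of Sham, AAA_7 and AAA_14. The late granule protease Mmp9 had one in 10 of 13, 7 of 14 and 83 of 97. In AAA_7 the markers Retnlg and G0s2, also outside the rule, were detected in fewer cells than Slpi, as given below. Some AAA_7 cells held 0 UMIs of both Csf3r and Cxcr2 and passed the rule by Clec4d, so the label was less well borne out there. The name "without inflammatory cytokine transcripts" held only for the 4 genes of the rule. Il1b, which encodes the cytokine interleukin-1 beta, had a UMI in 12 of 13, 10 of 14 and 88 of 97 cells. Cxcl2, a chemokine that draws neutrophils through Cxcr2, had one in 12 of 13, 13 of 14 and 81 of 97 cells. At least 1 of these 2 transcripts was present in 13 of 13, 13 of 14 and 93 of 97 gated cells.

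Depth differed between the libraries. In the order Sham, AAA_7, AAA_14, all barcodes together held 13677839, 13341534 and 67243700 UMIs, with medians of 3659, 2581 and 6968 per kept cell. The gated neutrophils were shallower, at medians of 2137, 1151 and 2835 UMIs and 817, 603 and 987 genes. Summed, they held 33704, 21139 and 376947 UMIs, so a single UMI weighed far more in the first 2 libraries. Their mitochondrial share had a median of 0.930% in Sham (range 0.171% to 8.25%), 0.536% in AAA_7 (0% to 7.11%) and 5.88% in AAA_14 (1.58% to 9.80%). The gated cells of AAA_14 thus lay well above those of the other libraries on this measure of RNA quality. This order did not hold for whole libraries. Over the limit of 10% were 2476 of 3785 barcodes in Sham, 244 of 3496 in AAA_7 and 4739 of 10108 in AAA_14. The part of the mitochondrial share in the AAA_14 and Sham differences below was not tested beyond the values given with a mitochondrial limit of 5%. No barcode was shared between libraries among the gated cells, although 5 to 12 barcodes were shared by any pair of libraries.

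A criterion added after the data were seen asked for 10 or more UMIs from markers of another cell type. Markers of B cells and of dendritic cells were not part of it. By this criterion 6 of the gated cells stood apart. They were 1 Sham cell of 6145 UMIs with 10 UMIs of T cell markers, 1 AAA_7 cell of 5477 UMIs with 18 of monocyte markers, and 4 AAA_14 cells. Of those 4, 1 cell held 156 fibroblast marker UMIs, 1 held 116 monocyte and 78 granulocyte precursor marker UMIs, 1 held 19 macrophage marker UMIs, and 1 held 801 precursor marker UMIs. The cells with the 78 and the 801 precursor UMIs had 0 UMIs of Retnlg, so the label mature neutrophil was not borne out for them. The 6 cells carried between 18.2% and 25.9% of the gated UMIs of their library, and 118 cells remained without them (12 in Sham, 13 in AAA_7, 93 in AAA_14). Among those 118, T cell markers were at 0 UMIs in Sham and had 14 UMIs in 10 of the 93 AAA_14 cells, and all basophil and mast cell markers were at 0. B cell markers, by contrast, had UMIs in 6 of 12, 5 of 13 and 90 of 93 cells, at 399, 575 and 1156 counts per 1000000 UMIs (CPM). Macrophage markers had UMIs in 3 of 12, 8 of 13 and 61 of 93 cells, at 109, 1085 and 449 CPM. The part of such foreign RNA in the library differences was not tested, and values without the 6 cells are given beside several lists and genes below.

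Gated neutrophils were a small population whose share depended on the library. They made up 1.05% of kept cells in Sham (exact binomial interval 0.562% to 1.79%), 0.434% in AAA_7 (0.237% to 0.726%) and 1.84% in AAA_14 (1.49% to 2.23%). Among neutrophils their share was 15.9% in Sham (8.72% to 25.6%), 2.67% in AAA_7 (1.47% to 4.44%) and 17.1% in AAA_14 (14.1% to 20.5%). Sham and AAA_14 thus had overlapping shares among neutrophils, and AAA_7 lay below both. Granule-low neutrophils (Camp, Ltf and Ngp under 10 per 10000) with 2 or more UMIs of the 4 genes, called cytokine-positive here, made up 92.7% of the neutrophils of AAA_7 against 39.0% in Sham and 52.7% in AAA_14. The share of all cells in Sham and AAA_14 moved with the mitochondrial limit: with a limit of 5% it was 8.82% and 2.34%, and with no limit 0.431% and 1.34%. The gated cells themselves numbered 12 in Sham and 37 in AAA_14 with the limit of 5%, and 16 and 134 with none.

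The limit on cytokine UMIs cut through a continuous range in AAA_14. Of 395 granule-low neutrophils there, 49 held 0 UMIs of the 4 genes, 48 held 1, and just outside the rule 30 held 2 and 21 held 3, with 226 at 6 or more. In Sham the numbers from 0 to 3 UMIs were 8, 5, 5 and 3 of 45. In AAA_7 they were 2, 12, 7 and 2 of 500, and 458 cells held 6 or more, so its 14 gated cells were the thin low end of a cytokine-rich population. Genes outside the rule differed in how they ran across the limit. AAA_14 cells with 0, 1, 2, 3 to 5 and 6 or more UMIs had 3748, 4620, 5180, 9561 and 26219 CPM of Cxcl2. Their Nfkbia, the NF-kB inhibitor that NF-kB itself induces, stood at 1287, 1140, 1435, 2320 and 7067 CPM. Their Retnlg had no such order, at 16491, 19753, 8043, 18339 and 8605 CPM. With 5 to 12 cells on either side, the other libraries were uneven: from 1 to 2 UMIs, Sham Nfkbia went from 2164 to 245 CPM and AAA_7 Cxcl2 from 7273 to 16820 CPM.

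**Figure D1:**
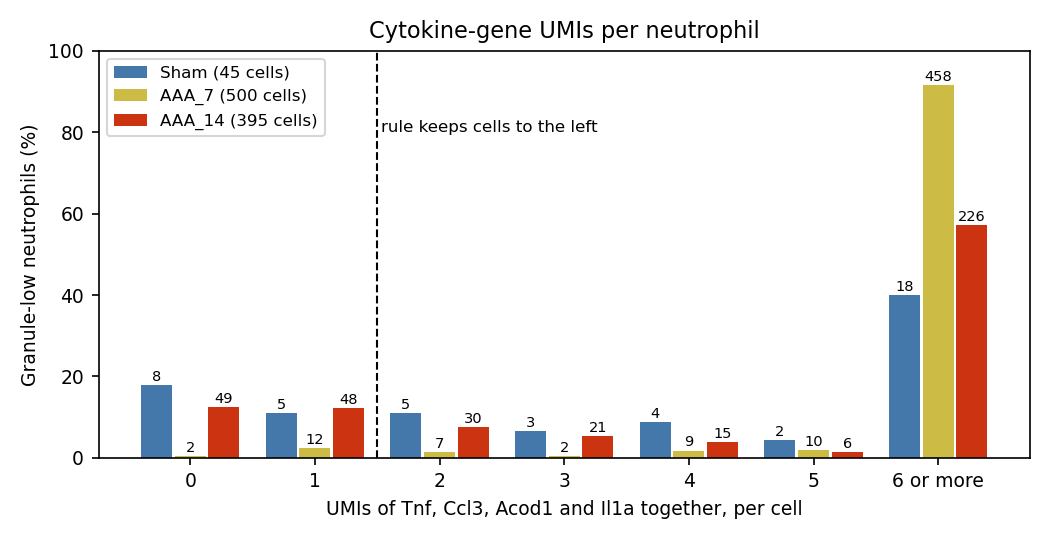
Share of granule-low neutrophils (percent, y axis) by the number of UMIs of Tnf, Ccl3, Acod1 and Il1a together (x axis), with bars coloured by library. Cell numbers stand above the bars, and a dashed line marks the limit of the rule. In AAA_14 cells spread over all bins (49 at 0 and 226 at 6 or more), while in AAA_7 458 of 500 cells sit in the last bin.

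The granule limit cut less. Neutrophils with 0 to 5 UMIs of Camp, Ltf and Ngp per 10000 and few cytokine UMIs numbered 11, 14 and 82 in Sham, AAA_7 and AAA_14, those from 5 to 10, just inside, numbered 2, 0 and 15, and those from 10 to 20, just outside, numbered 1, 1 and 10. Another 26, 4 and 100 held 50 or more. At the S100 limit, 1, 1 and 4 gated cells lay between 100 and 200 per 10000 and 1, 3 and 0 cells that passed the other gates between 50 and 100.

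Under the main settings, the median ratio of interferon-stimulated genes between the gated neutrophils of AAA_14 and Sham lay above that of all genes. The median of NF-kB response genes lay below that of all genes. The Sham side of every ratio rests on 13 cells, under the minimum of 20 cells that was set for ratios involving AAA_7. Levels below are CPM of the summed gated cells, in the order Sham, AAA_7, AAA_14, and ratios are log2 ratios of AAA_14 over Sham with 0.5 counts added. Among all 3878 genes with at least 10 UMIs in these cells the median log2 ratio was -0.02. A gene was counted as higher or lower when it was at least 2-fold apart, which a gene at 0 UMIs in a library had to reach against a floor of 3 UMIs there. Of the 3878 genes, 235 (6.06%) were higher in AAA_14 and 686 (17.7%) lower. Of the 1627 that also had 30 UMIs and 50 CPM, 235 (14.4%) were higher and 204 (12.5%) lower. Because AAA_14 held most of the UMIs, a gene absent from Sham could pass these filters through AAA_14 alone, so the counts are a description.

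Of 30 measured interferon-stimulated genes, AAA_14 was 2-fold or more above Sham in 11 and below it in 0, against 6.06% and 17.7% of all genes. The list's median log2 ratio was 1.66, with quartiles over its genes of 0.66 and 2.30, and it was 0.56 when genes at 0 in Sham were set to their bound. Without the 6 cells apart the counts were again 11 and 0, against 5.86% and 18.1% of all genes, and the median was 1.45. Adding 5 counts in place of 0.5 turned the list's median to -0.74, while the median of all genes moved to -1.48. With the mitochondrial limit of 5%, which kept 12 Sham and 37 AAA_14 cells, the list's median was 1.30. The genes are not replicates of one another.

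The interferon-induced membrane proteins, which block entry of enveloped viruses, were abundant in these cells. Ifitm1 had 1335, 3784 and 5489 CPM, with a UMI in 6 of 13, 12 of 14 and 85 of 97 cells, and a log2 ratio of 2.02 (1.61 to 2.50). Sham thus lay below both other libraries in level and in share of cells. Ifitm3 had 801, 1088 and 2353 CPM, at a log2 ratio of 1.53 (1.00 to 2.16), and Ifitm6 had 178, 94.6 and 976, at 2.34 (1.32 to 3.91). Ifitm2 had 1246, 2555 and 2348 and fell short of 2-fold at 0.90 (0.47 to 1.40).

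The Schlafen genes are interferon-induced regulators of leukocyte growth. Slfn4 had 237, 237 and 1032 CPM and a log2 ratio of 2.03 (1.13 to 3.34), so AAA_14 stood above both other libraries. Slfn5 had 29.7, 189 and 417 CPM and a ratio of 3.23 (1.31 to 9.12), which rested on a single Sham UMI. Trim30a, a restraint on inflammatory signalling, had 59.3, 331 and 401 CPM and a ratio of 2.44 (0.88 to 5.81). AAA_7 and AAA_14 were both above Sham for Slfn5 and Trim30a, on few UMIs.

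Among the antiviral effectors, Ifit1, which binds viral RNA caps, had 0 UMIs in Sham, 5 UMIs in 2 AAA_7 cells and 111 UMIs in 23 AAA_14 cells, or at least 3.31-fold higher in AAA_14 than the Sham floor. Its neighbour Ifit3 had 0, 142 and 223 CPM, at least 2.50-fold higher. Oasl2, a 2'-5' oligoadenylate synthetase-like protein, had 119, 94.6 and 379 CPM and a log2 ratio of 1.51 (0.29 to 3.57). Rtp4, an interferon-induced receptor transporter protein, had 59.3, 568 and 334 CPM and a ratio of 2.18 (0.61 to 5.56). These genes were at or near 0 in the 13 Sham cells, and the intervals are wide for that reason.

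Not every interferon gene followed. Isg15, the ubiquitin-like modifier, had 267, 568 and 225 CPM and a log2 ratio of -0.31 (-1.24 to 0.93). Rsad2, which encodes the antiviral enzyme viperin, had 297, 331 and 427 CPM and a ratio of 0.46 (-0.39 to 1.61), but all 10 Sham UMIs lay in 1 cell against 49 positive cells in AAA_14. Neither direction was resolved for these genes, and with a mitochondrial limit of 5% Isg15 stood at -1.25 and Rsad2 at -1.03.

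Promoter sequences of these genes are shown because the list's members share a known element there. In the 250 bases before the annotated start, the ISRE core, GAAA followed by any 2 bases and another GAAA (either strand, overlapping matches allowed), occurred in 13 of the 25 listed genes with a promoter entry (52.0%), against 936 of 27025 genes (3.46%). It occurred in 0 of 15 NF-kB response genes and in 0 of 15 late granule genes. A match describes the letters of the window and shows no binding. Below are 60 bases around a match from RefSeq's GRCm38.p6 on the strand of each gene, 5' to 3', with the match in capitals. The first 4 genes stood higher in AAA_14, and Isg15 and Rsad2 did not pass 2-fold. All genes shown were picked among those with a match. Ifitm1, Ifitm3, Ifitm6, Slfn4, Oasl2 and Rtp4 also stood at least 2-fold higher in AAA_14, and no match was listed for them. A gene without a promoter entry could not show a match. Whether a match went with a higher level was not tested.
Ifit1, chr19:34640760-34640819, plus strand: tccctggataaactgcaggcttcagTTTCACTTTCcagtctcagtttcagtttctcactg
Ifit3, chr19:34583382-34583441, plus strand: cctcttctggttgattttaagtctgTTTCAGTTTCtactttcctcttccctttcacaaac
Trim30a, chr7:104465195-104465254, minus strand: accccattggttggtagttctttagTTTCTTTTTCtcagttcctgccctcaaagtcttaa
Slfn5, chr11:82951922-82951981, plus strand: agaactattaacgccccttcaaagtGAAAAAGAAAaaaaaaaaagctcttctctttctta
Isg15, chr4:156200856-156200915, minus strand: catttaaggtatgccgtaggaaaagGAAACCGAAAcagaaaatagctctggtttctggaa
Rsad2, chr12:26456538-26456597, minus strand: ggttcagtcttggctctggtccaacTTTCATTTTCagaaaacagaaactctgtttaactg

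Interferon transcripts were spread over many AAA_14 cells. Of 26 interferon genes, at least 3 were detected in 4 of 13 Sham cells (30.8%, interval 9.09% to 61.4%), 6 of 14 AAA_7 cells (42.9%, 17.7% to 71.1%) and 83 of 97 AAA_14 cells (85.6%, 77.0% to 91.9%). Since deeper cells show more genes, each cell was then thinned to 1000 UMIs, which left out 0, 5 and 5 shallower cells. The shares became 2 of 13 (15.4%, 1.92% to 45.4%), 5 of 9 (55.6%, 21.2% to 86.3%) and 51 of 92 (55.4%, 44.7% to 65.8%). At equal depth the AAA_7 and AAA_14 shares were close, on 9 AAA_7 cells, and the Sham interval just overlapped that of AAA_14. The same thinned share in B cells, taken as cells with at least 2 UMIs of Cd79a, was 2.09%, 2.41% and 10.2%, so a lower share of B cells carried these transcripts and it too was higher in AAA_14. Among cytokine-positive neutrophils it was 9.68%, 44.2% and 67.5%, with Sham again the lowest. The 10% of AAA_14 gated cells richest in these transcripts held 40.5% of them.

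**Figure D2:**
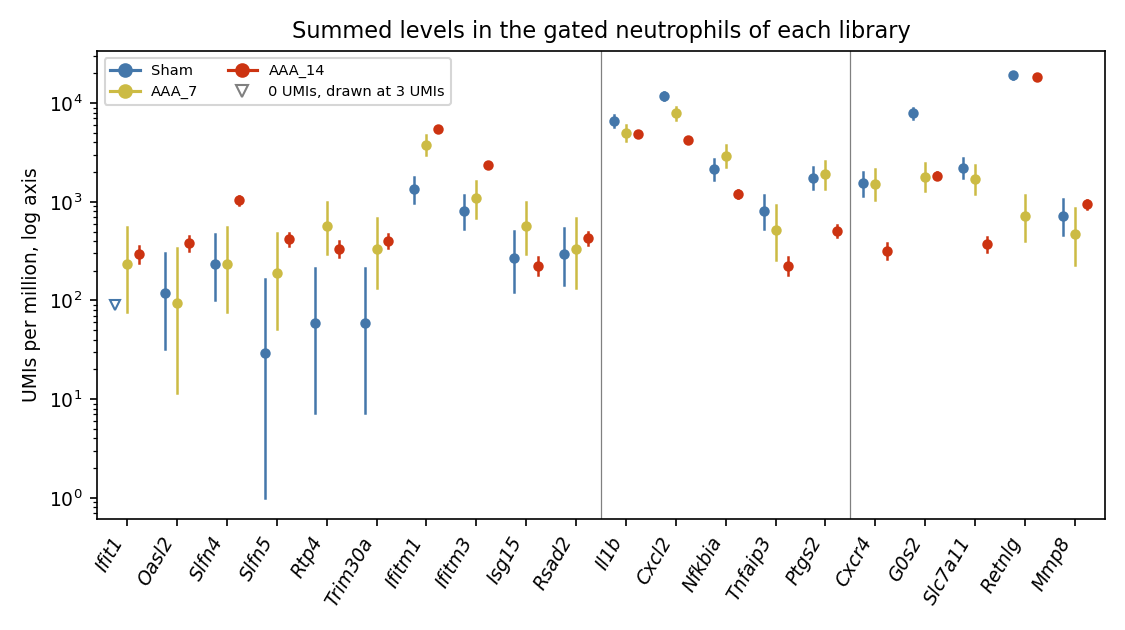
CPM (log axis) of summed gated neutrophils for named genes, 1 point per library with its 95% counting interval, and an open triangle at the level of 3 UMIs where a library had 0. Ifitm1 runs from 1335 in Sham to 5489 in AAA_14 and Ifit1 is at 0 in Sham, while Cxcr4, G0s2 and Slc7a11 are lower in AAA_14.

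The NF-kB response list had a median below 0. Of 16 measured genes, 7 were at least 2-fold lower and 1 was higher, against 17.7% and 6.06% of all genes, and the list's median log2 ratio was -0.91 (quartiles over genes -1.70 and -0.10). Without the 6 cells apart 8 of 13 were lower and 0 higher, against 18.1% and 5.86% of all genes, at a median of -1.06. Since a limit in UMIs is stricter in deep cells, a limit of 5 UMIs of the 4 genes per 10000 was tried in its place, after seeing the data, and the list's median was then -0.23. The size of this difference thus depended on how the cytokine limit was set. With the mitochondrial limit of 5% the median was -1.49. With 5 counts added in place of 0.5 the median of all genes was -1.48, and the NF-kB median did not lie clearly below it.

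The genes of this list are feedback inhibitors and effectors of the pathway. Tnfaip3, which encodes the deubiquitinase A20, had 801, 520 and 225 CPM and a log2 ratio of -1.85. Ptgs2, the cyclooxygenase of inflammatory prostaglandin synthesis, had 1751, 1892 and 507 CPM and a ratio of -1.80. Both were lowest in AAA_14. Nfkbia had 2136, 2933 and 1210 CPM and a ratio of -0.83 (-1.18 to -0.44), short of 2-fold, and its ratio was -0.04 with the limit per 10000. Nlrp3, the sensor of an inflammasome that releases interleukin-1 beta, had 593, 378 and 133 CPM and a ratio of -2.18 (-2.94 to -1.33).

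Cytokine and chemokine genes outside the rule were uneven. Of 16 measured genes, 7 were at least 2-fold lower in AAA_14 and 1 was higher, against 17.7% and 6.06% of all genes. The median log2 ratio was -0.37 with quartiles of -1.66 and 0.97, and with TMM scaling the median was 0.15. Without the 6 cells apart 7 of 13 were lower and 0 higher, against 18.1% and 5.86% of all genes, at a median of -1.02. The 1 higher gene in the full set was the chemokine Cxcl1, with 98.2% of its AAA_14 UMIs in a single cell. Cxcl2 had 11809, 7900 and 4205 CPM and a ratio of -1.49 (-1.65 to -1.33), which ran from -2.46 to -0.98 over the alternatives tried. Ccl4, a chemokine for monocytes and T cells, had 979, 710 and 204 CPM and a ratio of -2.27 (-2.87 to -1.63), which ran from -3.85 to -1.12 over the alternatives. Il1rn, the natural blocker of the interleukin-1 receptor, had 475, 520 and 114 CPM and a ratio of -2.08 (-2.91 to -1.13).

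Il1b itself differed little. It had 6587, 5014 and 4849 CPM and a log2 ratio of -0.44 (-0.64 to -0.23), which became -0.06 when cells were thinned before gating and 0.07 with TMM scaling. Vegfa, the vascular growth factor, had 653, 0 and 42.4 CPM and a ratio of -3.93, the lowest among the ranked genes. Csf1, the macrophage growth factor, had a ratio of -3.31 (-4.39 to -2.20), with its 15 Sham UMIs in 2 cells.

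Receptors for chemoattractants and growth factors had a list median near that of all genes, with single genes apart in both directions. Of 16 measured, 3 were at least 2-fold higher and 5 lower, against 6.06% and 17.7% of all genes. The median log2 ratio was -0.06, with quartiles of -1.11 and 0.96, and the sign of this median changed with scaling. Cxcr4, the receptor that holds neutrophils in marrow and rises on aged ones, had 1543, 1514 and 321 CPM, with a UMI in 10 of 13, 10 of 14 and 61 of 97 cells, and a ratio of -2.27 (-2.75 to -1.77). Ptafr, the receptor for platelet-activating factor, had 742, 1041 and 157 CPM and a ratio of -2.26 (-2.94 to -1.51). C5ar1, the complement C5a receptor, had 564, 1041 and 472 CPM and a ratio of -0.29 (-0.94 to 0.51). AAA_14 was thus low for Cxcr4 and Ptafr, and the Sham and AAA_14 levels of C5ar1 overlapped within counting error.

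**Figure D3:**
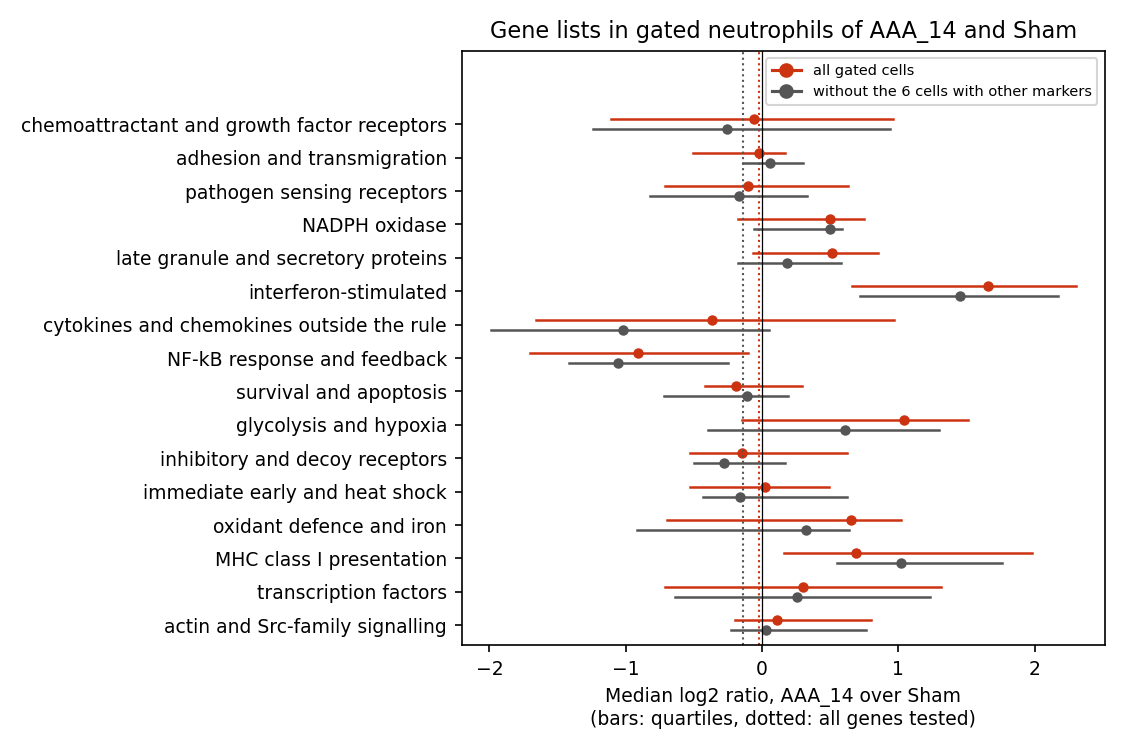
Median log2 ratio of AAA_14 over Sham (x axis) for 16 gene lists in all gated neutrophils and without the 6 cells apart, with bars from the first to the third quartile of the genes and dotted lines at the medians of all genes. The interferon-stimulated list is at 1.66 and 1.45, the NF-kB list at -0.91 and -1.06, and glycolysis and hypoxia at 1.04 and 0.61.

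Adhesion and microbe-sensing receptors also lay close to the background. The shares over all genes were 6.06% higher and 17.7% lower. Of 13 adhesion genes 1 was higher and 1 lower (median -0.02), and of 16 sensing genes 1 was higher and 2 lower (median -0.10). Selplg, the selectin ligand on which neutrophils roll, had 356, 520 and 714 CPM and a log2 ratio of 0.95 (0.17 to 1.97). Of 6 NADPH oxidase genes 1 was higher and 0 lower, at a median of 0.50: Cybb, the catalytic subunit, had 29.7, 94.6 and 279 CPM, and its AAA_14 level was 163 without the cells apart.

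Late granule and secretory genes were as a list slightly higher, at a median of 0.51. This median was 0.18 without the 6 cells apart and -0.09 with cells thinned before gating. Of 18 genes 3 were higher and 1 lower, against 6.06% and 17.7% of all genes. Retnlg, a resistin-like secreted protein of late neutrophils, had 19108, 710 and 18199 CPM and a log2 ratio of -0.07 (-0.19 to 0.05), so Sham and AAA_14 overlapped within counting error. The 14 AAA_7 cells stood far below, with 15 UMIs in 6 cells. Mmp8, a collagenase of the late granules, had 712, 473 and 947 CPM and a ratio of 0.38 (-0.19 to 1.07). Wfdc17, a small secreted whey acidic protein, had 1157, 3690 and 5152 CPM and a ratio of 2.14 (1.70 to 2.65). This was the highest ratio on its list.

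The medians of metabolic and antigen presentation genes were above 0 under the main settings. Of 20 glycolysis and hypoxia genes 7 were higher and 1 lower, against 6.06% and 17.7% of all genes (median 1.04, but 0.22 with genes at 0 in Sham at their bound and -0.45 with 5 counts added), and without the 6 cells apart 3 of 17 were higher, against 5.86% of all genes, at a median of 0.61 (quartiles -0.40 and 1.30). Pkm, the pyruvate kinase of glycolysis, had 208, 473 and 722 CPM and a log2 ratio of 1.70. Of 14 MHC class I genes 4 were higher and 0 lower (median 0.69, and -0.09 with 5 counts added), and without the 6 cells 3 of 12 were higher, at a median of 1.02, or 0.49 with genes at 0 at their bound. H2-D1, a class I heavy chain, had 1068, 1325 and 2183 CPM and a ratio of 1.01, and Psmb9, an immunoproteasome subunit, was at 0, 47.3 and 207, at least 2.32-fold higher.

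Counts for the other lists stand beside 6.06% higher and 17.7% lower of all genes. Survival and apoptosis genes had 0 higher and 2 lower of 17 (median -0.19, and 0.32 with TMM scaling), immediate early and heat shock genes 1 higher and 3 lower of 20 (median 0.02, and 4 higher and 3 lower at -0.16 without the 6 cells), inhibitory and decoy receptors 1 higher and 2 lower of 14 (median -0.15), transcription factors 1 higher and 2 lower of 16 (median 0.30), and actin and Src-family genes 1 higher and 0 lower of 20 (median 0.11). Oxidant defence and iron genes went both ways, with 3 higher and 3 lower of 14 (median 0.65, quartiles -0.70 and 1.02). Slc7a11, the cystine importer that feeds glutathione synthesis, was among the lower ones with 2225, 1703 and 371 CPM and a log2 ratio of -2.59, or -1.67 with cells thinned before gating. Gpx1, a glutathione peroxidase, was among the higher ones with 237, 1230 and 1167 CPM and a ratio of 2.21. Il1r2, the decoy receptor that soaks up interleukin-1, had 1394, 2507 and 382 CPM and a ratio of -1.88.

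G0s2, an inhibitor of fat breakdown and a marker of mature neutrophils, had its highest level in Sham. It had 7863, 1798 and 1838 CPM and a log2 ratio of -2.10 (-2.30 to -1.89). It was detected in 10 of 13, 8 of 14 and 63 of 97 cells, so the shares of positive cells were closer than the levels.

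Among the genes ranked, which are defined with the processing below, the highest ratios in AAA_14 were mostly set by single cells. All 12 highest genes, with or without the 6 cells apart, had 0 UMIs in Sham. Their order thus followed their AAA_14 UMIs alone, and they passed the filter through AAA_14 only. Of the 12 highest genes, Elane, Prtn3 and Mpo, proteases and peroxidase of primary granules, had 95.4%, 79.5% and 96.9% of their AAA_14 UMIs in 1 cell, and the fibroblast gene Dcn had 100% in 1 cell. Chil3, Rarres2, Crip1, Stfa1 and Cxcl1 had 94.2%, 99.1%, 83.6%, 65.4% and 98.2% in 1 cell. Vsir, an inhibitory receptor of the B7 family, Sirpa, the receptor for the don't-eat-me signal CD47, and Ifit1 were spread over cells, with 9.68%, 7.02% and 21.6% in their richest cell. Without the 6 cells apart these 3 led the ranking, at least 3.28-fold, 3.09-fold and 3.25-fold above the Sham floor, but the log2 ratio of Vsir was 0.49 with granule genes allowed up to 50 per 10000. In that comparison 173 genes (13.8%) were higher and 148 (11.8%) lower of 1258. Its lowest genes were Vegfa at -3.92, the transcriptional repressor Tgif1 at -3.26 and the stress factor Atf3 at -2.97.

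Within AAA_14 the gated cells ran along a gradient of S100a8 and S100a9, the calprotectin subunits. Among the 93 cells without the 4 apart, these 2 transcripts took from 1.44% to 41.1% of a cell's UMIs, with a median of 19.3%. Across 364 genes detected in at least 50% of the cells, the rank correlation of this share with each gene's level per non-S100 UMI was highest for Retnlg (0.86), Wfdc21 (0.81), S100a6 (0.73), Lyz2 (0.71), Mmp8 (0.70), R3hdm4 (0.67), Lcn2 and S100a11 (both 0.66) and Pglyrp1 (0.65). Of these, Retnlg, Wfdc21, Lyz2, Mmp8, Lcn2 and Pglyrp1 are on the late granule and secretory list. Summed over the 47 cells with the lower and the 46 with the higher S100 share, Retnlg had 5146 and 48256 CPM of non-S100 UMIs.

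The lowest rank correlation was that of Il1b, at -0.56, with 11306 and 5112 CPM in the lower and higher part. Next came Socs3 (-0.51), an inhibitor of cytokine signals, Zfp36 (-0.48), an mRNA destabiliser, Pim1, Fxyd5 (both -0.48), Srgn (-0.47) and Nfkbia (-0.46, at 2829 and 773 CPM). Cxcl2 was at -0.07 by rank, although its summed level also fell, with 9625 and 4423 CPM in the lower and higher part. Il1b and Cxcl2 thus differed in rank correlation but not in the direction of their summed levels along the gradient. Csf3r and Cxcr2 (both -0.23) and Ifitm1 (-0.07) had weak rank correlations with the S100 share. From the lower to the higher part Csf3r went from 3372 to 2625 CPM and Cxcr2 from 1999 to 1439 CPM. Ifitm1 went from 8426 to 7844 CPM. S100a8, S100a9, Csf3r and Cxcr2 are genes of the rule, so their values are a description only. The cells share 1 library, and depth moved with the gradient: the correlation was 0.60 with all UMIs, 0.32 with non-S100 UMIs and -0.37 with the mitochondrial share. The median cell had 2315 UMIs in the lower part and 3596 in the higher part. The gated cells were thus not uniform in these transcripts.

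**Figure D4:**
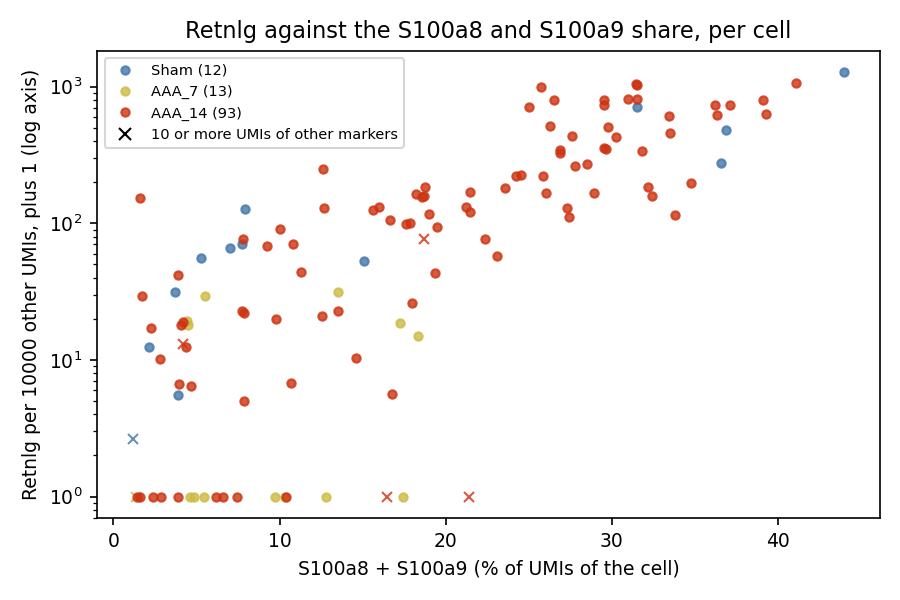
Each point is a gated neutrophil, with the share of its UMIs from S100a8 and S100a9 (percent, x axis) and its Retnlg UMIs per 10000 non-S100 UMIs plus 1 (log axis), coloured by library, with crosses for the 6 cells apart. Retnlg climbs with the S100 share in AAA_14 (rank correlation 0.86), and the AAA_7 cells lie at the bottom.

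The 2 comparisons with other neutrophils of AAA_14 rest on the values that defined the gates, so they describe the cells and support nothing. Beside the 298 cytokine-positive neutrophils, 126 of 2517 genes (5.01%) were 2-fold higher and 220 (8.74%) lower in gated cells, and in the NF-kB list 15 of 18 were lower (median -1.82, quartiles -2.24 and -1.31), against 9.55% lower and 9.70% higher of all 7080 genes with 10 UMIs. Il23a, a subunit of interleukin-23, and the survival gene Bcl2a1d had 0 UMIs in gated cells, at least 19.6-fold and 13.3-fold lower. The monocyte and neutrophil co-receptor for endotoxin Cd14 had 180 CPM in gated and 1429 in cytokine-positive cells. Interferon-stimulated genes differed less, with 7 of 30 lower and a median of -0.59. With the cells apart left out of both gates, 22 of them cytokine-positive, 4 interferon-stimulated genes were lower, at a median of -0.43. There 9.68% of all genes were lower and 7.90% higher. Retnlg had 18199 CPM in gated and 10068 in cytokine-positive cells.

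Beside the 171 granule-rich neutrophils, which still carry Camp, Ltf and Ngp, 1677 of 7602 genes (22.1%) were at least 2-fold higher and 576 (7.58%) lower in gated cells, with a median over all genes of 0.35. With the cells apart left out of the gated side only, 1460 (19.9%) were higher and 902 (12.3%) lower of 7346, at a median of 0.09. Of 30 interferon-stimulated genes 22 were higher (median 1.25, and 1.52 without the cells apart), and of 18 NF-kB genes 12 (median 1.38, and 1.49). Of 17 chemoattractant and growth factor receptors 8 were higher (median 0.98). Ifitm1 had 5489 CPM against 368, Wfdc17 had 5152 against 284, and Jaml, a junctional adhesion molecule of leukocytes, had 316 against 21.5. Lower in gated cells were Lcn2, an iron-scavenging granule protein, at 2595 against 13966, and Cybb at 279 against 1743. Il1b had 500 CPM in granule-rich, 4849 in gated and 12407 in cytokine-positive cells.

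**Figure D5:**
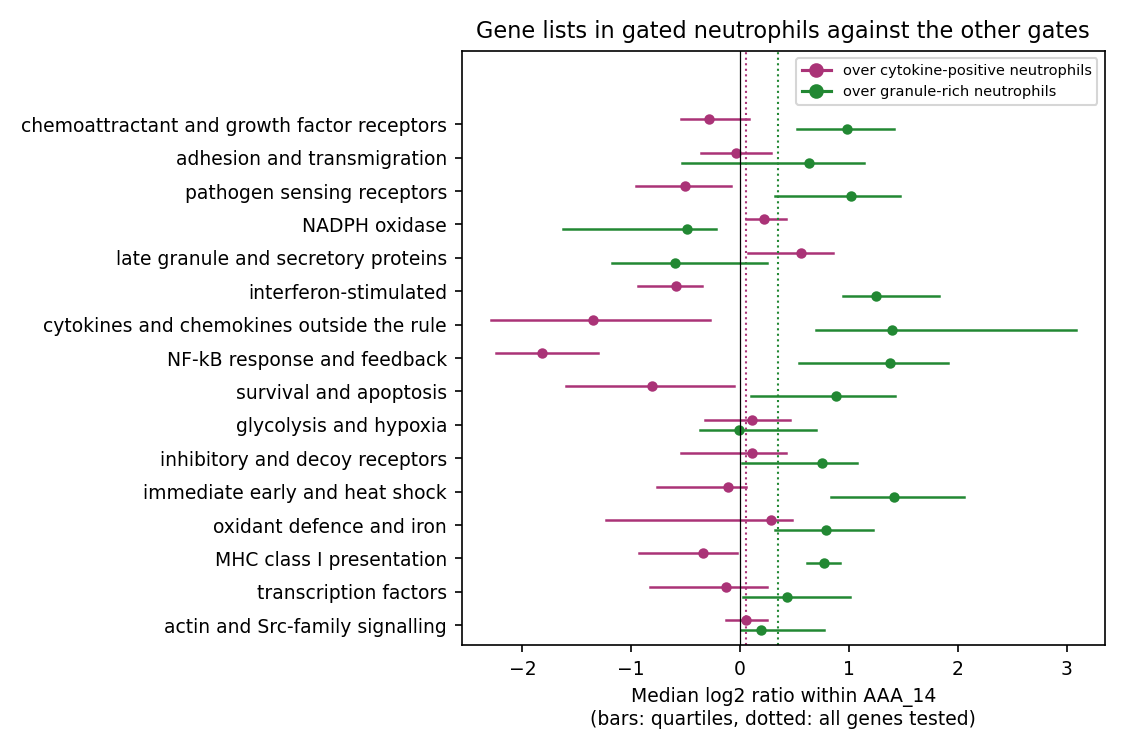
Median log2 ratio within AAA_14 (x axis) for the gene lists, of gated over cytokine-positive and of gated over granule-rich neutrophils, with bars from the first to the third quartile of the genes. The NF-kB list is at -1.82 against cytokine-positive and at 1.38 against granule-rich cells, and both contrasts use values that defined the gates.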

How the data were processed

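The deposited files are the authors' filtered count matrices, whole-number UMI counts per gene and barcode written by Cell Ranger 6.1.2, per the file headers; Cell Ranger, Seurat and mm10 are named in the submitters' processing notes. The labels' protocols give a v2 3' kit. Cells were filtered and gated on these counts with Python 3.11.15, numpy 2.4.6, scipy 1.17.1, pandas 2.3.3 and scanpy 1.11.5 (TMM factors, an alternative, with edgeR 4.0.16), and counts were summed per library and gate. Levels have exact Poisson intervals, shares exact Clopper-Pearson intervals, and ratios exact conditional binomial intervals. The code for ratios and intervals was tested on simulated counts without spread between cells, and the thinning code on the gated cells. Gating, list medians and the floor for genes at 0 UMIs were not simulated. With 1 library per group no p-value was computed; ratios against AAA_7 needed 20 cells a library and were not made, while AAA_14 over Sham, the main comparison, is given although Sham has 13 cells. Scrublet's own threshold called 1, 0 and 0 doublets, so doublets were kept, and removing its highest-scoring cells was an alternative. Named genes were the 12 highest and 12 lowest ratios plus listed genes. Ranked genes had to pass the filter of 30 UMIs and 50 CPM, with an interval excluding 0. Their level in the higher library had to be at least 0.1 of that in its B cells, T cells and phagocytes. Genes of the rule, mitochondrial, ribosomal, haemoglobin, antigen receptor and sex-linked genes and unnamed gene models were left out of the ranking. Clec7a and BC100530 were matched to no gene name and not used here. The gated cells, gene lists and comparisons were chosen with earlier results of these data known. RefSeq promoters were matched by symbol.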

Additional observations from a re-analysis of the deposited data

Results flagged for a closer look

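Barcodes above the mitochondrial limit were outside every comparison. Of 4739 such barcodes in AAA_14, 37 (0.781%, exact binomial interval 0.550% to 1.07%) passed all other criteria for gated neutrophils, against 3 of 2476 in Sham (0.121%, 0.0250% to 0.354%) and 0 of 244 in AAA_7. The share of all such barcodes above the Sham share drew attention to this result. Counted among barcodes over the limit that passed the neutrophil criteria, they were 37 of 185 in AAA_14 and 3 of 4 in Sham, so AAA_14 was not above Sham on that count. The 37 barcodes compare with 97 gated cells under the limit in that library.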

How the results depend on the processing

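No paired analysis was possible because each group is 1 library and its replicate number is only a name. The share of all kept cells moved in Sham to 8.82%, 0.458% and 0.431% with mitochondrial limits of 5%, 20% and none. It moved in AAA_14 to 2.34%, 1.46% and 1.34% with those limits, to 3.19% with cells thinned to 1000 UMIs before gating, and to 0.927% and 2.80% with limits of 0 and 3 cytokine UMIs. In AAA_7 it was 0.0619% with 0 cytokine UMIs and 0.124% with under 5 per 10000. The share of neutrophils moved in Sham to 31.3% (thinned) and 25.6% (at most 3 cytokine UMIs), in AAA_7 to 0.382% (0 UMIs) and 0.763% (under 5 per 10000), and in AAA_14 to 12.3% (5% limit), 31.1% (thinned), 8.66% (0 UMIs), 26.1% (at most 3) and 20.7% (granule genes under 50 per 10000). The share of AAA_14 cells with 3 interferon genes was 55.4% when thinned.

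For AAA_14 over Sham, the 235 higher genes became 112 (thinned), 148 (0 UMIs), 357 (at most 3), 48 (5 counts added) and 482 (TMM), and the 204 lower genes became 69, 113, 570 and 65 when thinned, with 0 UMIs, with 5 counts added and with TMM, 70 without each gene's richest cell, and 686 with a filter of 10 UMIs only. TMM moved the median of all genes to 0.49, 5 added counts to -1.48, and leaving out each gene's richest cell to 0.91, so list medians are to be read beside these. With 5 counts added, medians were -1.09 (sensing), -0.74 (interferon-stimulated, a reversed sign), -1.43 (survival), -0.45 (glycolysis), -0.90 (transcription factors) and -0.49 (actin). With TMM they were 1.03 (late granule), 0.32 (survival), 1.55 (glycolysis), 0.54 (immediate early) and 1.17 (oxidant defence), and Il1b reversed to 0.07. Without each gene's richest cell they were 1.00 (late granule) and 1.34 (survival). Thinning gave -0.09 (late granule), and survival was -0.63, -0.62 and -0.48 with a 5% limit, 0 UMIs and an S100 limit of 200 per 10000. Under the other alternatives the interferon-stimulated median stayed between 1.30 and 2.17. The NF-kB median was between -1.49 and -0.23 under every alternative, 5 counts added included. All genes had a median of -1.48 with 5 counts added, so the NF-kB list did not lie clearly below all genes there.

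For gated over cytokine-positive cells, the 126 higher genes became 263 (5% limit), 64 (thinned), 235 (0 UMIs), 73 (granule genes under 50), 82 (without the cells apart), 376 (under 5 per 10000), 75 (TMM), 36 (without the richest cell) and 687 (10 UMIs only). Here the setting without the cells apart left out 4 gated and 22 cytokine-positive cells of AAA_14. The 220 lower genes became 145 (thinned) and 676 (10 UMIs only). Medians moved to -0.57 and -0.55 for receptors and -0.17 and -0.99 for interferon-stimulated genes (0 UMIs, under 5 per 10000), to -0.43 for the latter without the cells apart, to 0.05 for immediate early genes (0 UMIs), and to -0.13 and -0.12 for actin (5% limit, TMM). The causes of these changes were not tested. The settings of under 5 per 10000 and without the cells apart were chosen after seeing the data. Depth limits Sham and AAA_7, whose gated cells sum to 33704 and 21139 UMIs.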
